A study of Chlamydomonas reinhardtii with 20 samples.

Results

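The genes described here are 4 photoreceptor genes of the green alga Chlamydomonas reinhardtii, taken by their gene IDs from the 17737 IDs of the expression table. They are PHOT (Cre03.g199000, phototropin), CPH1 (Cre06.g295200, the plant-type cryptochrome), UVR8 (Cre05.g230600, the UV-B receptor) and channelrhodopsin 1 (Cre14.g611300, written ChR1 below). All 4 were present in the table and all 4 passed the filter on low values. The names came with the choice of IDs, since neither the table nor the reference gene table annotates these IDs beyond the locus tag.

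Photoreceptors are proteins that hold a light-absorbing cofactor and pass its excitation on as a signal. PHOT is a blue-light-activated kinase with flavin-binding LOV domains, known in Chlamydomonas for its part in the sexual cycle, the eyespot and photoprotection. CPH1 is a flavin-binding blue-light receptor whose protein is known to be lost in light. UVR8 senses UV-B through its own tryptophan residues and, once activated, binds the ubiquitin ligase COP1. ChR1 is a light-gated cation channel of the eyespot region that steers swimming, with retinal as its chromophore. Chlamydomonas makes bilins, linear tetrapyrroles cut from heme by heme oxygenase, but has no phytochrome, the bilin-binding receptor of land plants, and none of the 4 receptors uses a bilin as its chromophore.

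By its title the series is about how bilins bear on photoacclimation. The 20 RNA-seq libraries fell into 10 groups of 2 labelled biological replicates. The complemented lines ho1C2 and ho1C1, which are derived from the heme oxygenase mutant hmox1, were each sampled without biliverdin IXα (BV) in the dark, after 0.5 h and after 4 h of white light. The hmox1 mutant, with 0.1 mM BV or without BV, was sampled at 4 h of white light, as was the wild type 4A+. Before light, every culture had grown in the dark on an acetate medium that held methanol, the carrier of BV. The 4 h time comes from the labels of single samples, whereas the treatment text for the series mentions a light period of 0.5 h only, and the groups follow the sample labels. Dark and 0.5 h samples of hmox1 and 4A+ are not analysed here, so every comparison with darkness rests on the complemented lines. The sources used here do not give the construct behind the complemented lines, and the mutated gene is not annotated in the files, so the strain labels were not checked against its transcript. How far replicate cultures were separate is not stated, and the p-values therefore cover only the spread between these samples, which may be technical.

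Values are taken as RPKM, reads scaled to gene length and to the total reads of a library. The unit is inferred from the values, and levels set side by side between genes hold as levels per length only if it is right. Column sums ran between 718144 and 797204 RPKM, and the read depth behind them is unknown, so no counting interval is given. The median absolute log2 difference between replicates was 0.07 to 0.0886 in 9 groups and 0.155 in hmox1 without BV, the pair that lay furthest apart. Differences are on the log2(RPKM + 1) scale from limma, with a Benjamini-Hochberg adjusted p over 13871 tested genes and a threshold of 0.05. Many genes moved in most comparisons, and the share of all tested genes called is given beside each count from the deposited values. Rescaling the libraries by median ratios, so that the typical gene does not move, shifted the median of all tested genes by more than 0.1 in several comparisons. In ho1C1 at 0.5 h against dark that median was -0.38 as deposited and -0.01 after rescaling, with 3010 higher and 8254 lower calls as deposited and 5334 higher and 5380 lower calls after it. In hmox1 against 4A+ without BV the median was 0.24 as deposited and 0.00 after rescaling, with 7418 higher and 1632 lower calls as deposited and 4230 higher and 4187 lower calls after it. Results that turn on this choice are named as they come.

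Over all 20 libraries ChR1 averaged 96.95 RPKM, PHOT 79.5 RPKM, CPH1 13.3 RPKM and UVR8 12.6 RPKM. Of the tested genes, 5.62% had a higher mean level than ChR1, 6.70% a higher one than PHOT, 27.8% a higher one than CPH1 and 28.9% a higher one than UVR8. The genes differed in how far their levels ranged. The highest group mean was 7.72 times the lowest for ChR1, 4.37 times for CPH1, 2.05 times for UVR8 and 1.54 times for PHOT. For ChR1, UVR8 and PHOT the lowest groups were the 0.5 h light groups, and for CPH1 the lowest groups were the 4 h light groups.

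**Figure D1:**
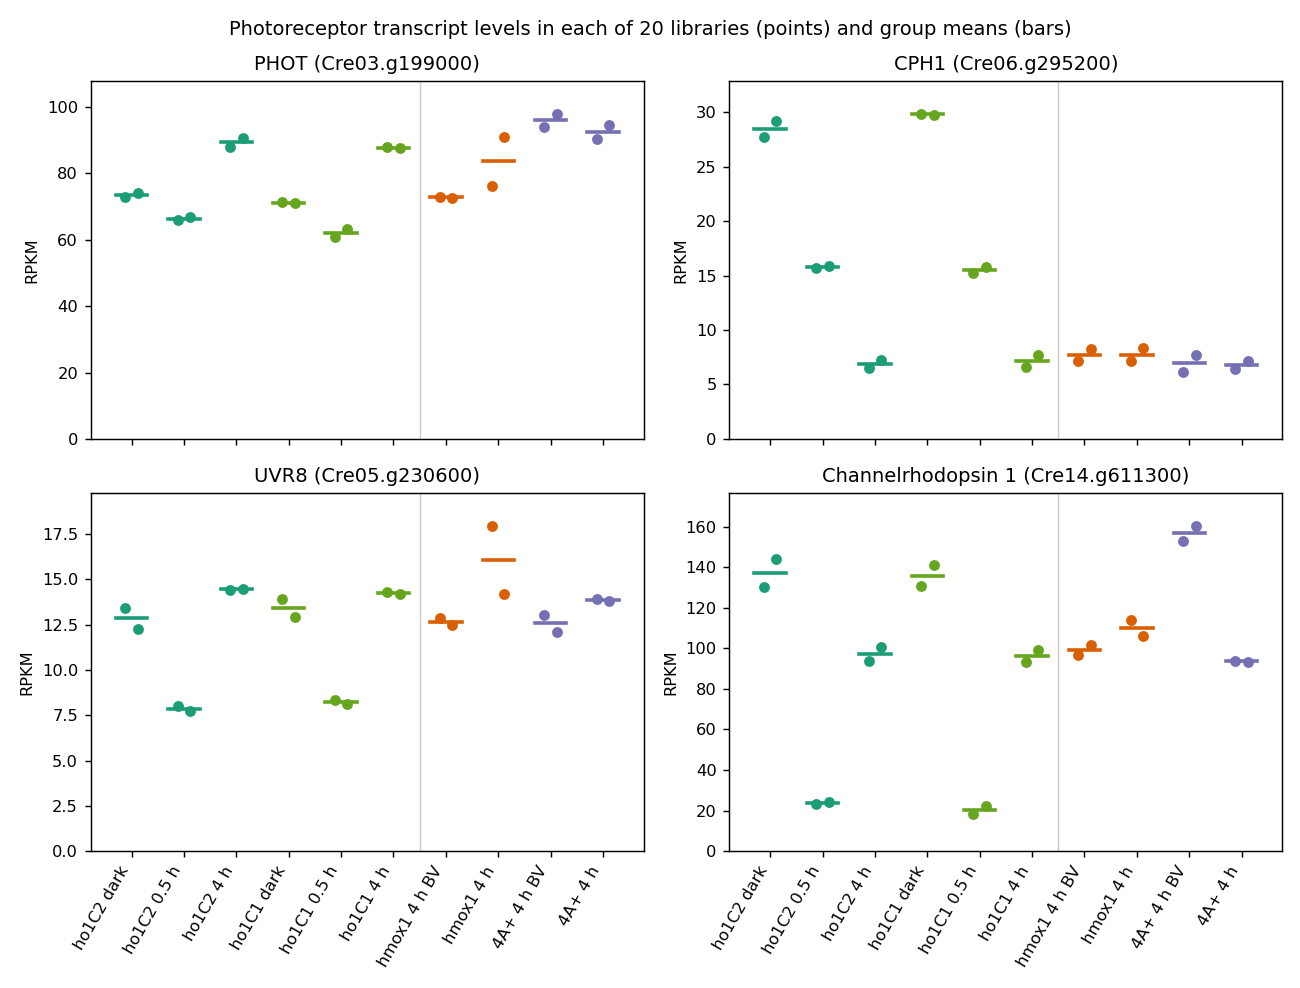
RPKM of PHOT, CPH1, UVR8 and ChR1 in each of the 20 libraries, grouped by strain, light time and BV; points are libraries and bars are means of 2. ChR1 dropped to between 18.43 and 24.17 RPKM in the 4 libraries at 0.5 h and was highest, at 153.05 and 160.4 RPKM, in 4A+ with BV, while CPH1 was high in the dark libraries and low in every 4 h library.

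The first question was how the receptor transcripts changed when dark-grown cells met light. As deposited, all 4 genes were lower at 0.5 h than in the dark in ho1C2 and in ho1C1. The mean of PHOT in ho1C2 was least affected and fell by 9.64%. The mean of ChR1 in ho1C1 was most affected and fell by 85.0%. Under median-ratio scaling PHOT was instead called higher at 0.5 h, by log2 0.28 in ho1C1 and 0.25 in ho1C2. At 4 h, as deposited, the 4 genes had separated. ChR1 had recovered most of its level and UVR8 was not called against the dark. PHOT was above its dark level, and CPH1 had fallen further. Beside these counts, 78.8% of all tested genes were called at 0.5 h in ho1C2, with 56.2% of all tested genes lower. In ho1C1 81.2% were called, with 59.5% lower, so 4 of 4 lower calls stood beside a background that was itself mostly lower.

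ChR1 showed the deepest drop. In ho1C1 its 2 libraries had 130.64 and 140.92 RPKM in the dark, 18.43 and 22.17 RPKM at 0.5 h, and 93.31 and 98.94 RPKM at 4 h. In ho1C2 they had 130.18 and 144.23 RPKM in the dark, 23.21 and 24.17 RPKM at 0.5 h, and 93.78 and 100.73 RPKM at 4 h. The 3 times did not overlap in either line, with the 0.5 h libraries far below the rest. For ChR1 the log2 difference at 0.5 h came to -2.69 ± 0.0749 (SE, adjusted p = 6.79e-16) in ho1C1 and -2.48 ± 0.0749 (SE, adjusted p = 2.32e-15) in ho1C2. Only 0.562% of tested genes fell as far or further in ho1C1, and 0.735% in ho1C2. Under every alternative run, the ChR1 difference at 0.5 h stayed between -2.81 and -2.22 in ho1C1 and between -2.56 and -2.09 in ho1C2, and it was called each time. Between 0.5 h and 4 h ChR1 rose by 2.19 on the log2 scale in ho1C1 (adjusted p = 1.89e-14) and by 1.99 in ho1C2 (adjusted p = 7.33e-14). At 4 h it was still below the dark level, by a log2 difference of -0.49 in each line (adjusted p = 1.19e-05 in ho1C1 and 1.36e-05 in ho1C2). Its mean fell by 29.2% in ho1C1 and fell by 29.1% in ho1C2, and under median-ratio scaling the log2 difference was -0.31 in each line.

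CPH1 fell in steps. In ho1C1 it had 29.9 and 29.73 RPKM in the dark, 15.21 and 15.79 RPKM at 0.5 h, and 6.63 and 7.71 RPKM at 4 h. In ho1C2 it had 27.73 and 29.21 RPKM in the dark, 15.68 and 15.9 RPKM at 0.5 h, and 6.5 and 7.26 RPKM at 4 h. Each later time lay wholly below the earlier one in both lines. For CPH1 the log2 difference at 0.5 h came to -0.90 ± 0.0976 (SE, adjusted p = 1.08e-07) in ho1C1 and -0.81 ± 0.0976 (SE, adjusted p = 4.83e-07) in ho1C2. At 4 h against dark it was -1.92 (adjusted p = 4.79e-12) in ho1C1 and -1.90 (adjusted p = 6.3e-12) in ho1C2. The mean fell by 76.0% in ho1C1 and fell by 75.8% in ho1C2. Of the tested genes, 1.43% fell as far or further than CPH1 at 4 h in ho1C1, and 1.19% in ho1C2. At 4 h 3 of the 4 receptors were called in each line, CPH1 and ChR1 lower and PHOT higher. Beside this, 69.5% of all tested genes were called in ho1C1, 26% higher and 43.5% lower, and 68.2% in ho1C2, 22.6% higher and 45.6% lower. CPH1 was the one receptor that went on falling between 0.5 h and 4 h, by a log2 difference of -1.02 in ho1C1 and -1.09 in ho1C2 (adjusted p = 3.28e-08 and 1.29e-08). In that interval 4 of 4 receptors were called in each line, the other 3 higher. Of all tested genes 73.4% were called in ho1C1, 49% higher and 24.4% lower, and 71% in ho1C2, 44.6% higher and 26.4% lower. After median-ratio scaling the fall of CPH1 at 0.5 h came to -0.44 in ho1C1 and to -0.43 in ho1C2, less than the deposited values by over 1.5 times, and the fall at 4 h was -1.74 and -1.72.

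UVR8 dipped and came back. Its libraries in ho1C1 had 13.94 and 12.93 RPKM in the dark, 8.32 and 8.15 RPKM at 0.5 h, and 14.31 and 14.19 RPKM at 4 h. In ho1C2 they had 13.45 and 12.28 RPKM in the dark, 8.01 and 7.71 RPKM at 0.5 h, and 14.43 and 14.47 RPKM at 4 h. The 0.5 h libraries lay apart below all others, and the 4 h libraries lay just above the dark ones in both lines. UVR8 at 0.5 h differed from the dark by -0.64 in ho1C1 (adjusted p = 1.18e-06) and by -0.65 in ho1C2 (adjusted p = 1.29e-06) on the log2 scale. Its mean fell by 38.7% in ho1C1 and fell by 38.9% in ho1C2. Under median-ratio scaling these became -0.20 and -0.28, still called. Between 0.5 h and 4 h UVR8 rose by 0.72 in ho1C1 (adjusted p = 3.9e-07) and by 0.80 in ho1C2 (adjusted p = 1.07e-07), and after median-ratio scaling by 0.45 and 0.61. At 4 h against dark UVR8 had log2 differences of 0.08 in ho1C1 (95% interval -0.10 to 0.26, adjusted p = 0.407) and 0.16 in ho1C2 (-0.02 to 0.33, adjusted p = 0.105), neither called. Under median-ratio scaling the same differences were 0.25 and 0.33 and were called, and with scaling on abundant genes alone they were -0.02 and 0.09 and were not.

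PHOT had the narrowest range of group means as deposited. In ho1C1 it had 71.41 and 70.97 RPKM in the dark, 60.93 and 63.34 RPKM at 0.5 h, and 87.87 and 87.79 RPKM at 4 h. In ho1C2 it had 72.87 and 74.08 RPKM in the dark, 66.02 and 66.76 RPKM at 0.5 h, and 88.12 and 90.72 RPKM at 4 h. The times did not overlap in either line, with 0.5 h lowest and 4 h highest. At 4 h PHOT was higher than in the dark by 0.30 in ho1C1 (adjusted p = 0.000354) and by 0.28 in ho1C2 (adjusted p = 0.000689) on the log2 scale, 23.4% and 21.7% above the dark level. This rise was called under every alternative, between 0.20 and 0.48 in ho1C1 and between 0.21 and 0.46 in ho1C2. The direction at 0.5 h, in contrast, depended on the scaling. As deposited the log2 differences were -0.19 in ho1C1 (adjusted p = 0.00864) and -0.14 in ho1C2 (adjusted p = 0.0431). After median-ratio scaling they were 0.28 and 0.25, called in the opposite direction, and with factors from abundant genes alone they were -0.21 in both lines, called lower. As deposited, PHOT fell less at 0.5 h than the median tested gene, by log2 0.18 in ho1C1 and 0.17 in ho1C2. Set against abundant genes alone it was lower, so its relative direction depended on the genes it was compared with. The ho1C2 call was also lost when any 1 of its 4 libraries was left out (adjusted p between 0.0871 and 0.143), with no filter (0.0502) and with plain moderation (0.0727). The ho1C1 call was lost without its first 0.5 h library (-0.17, adjusted p = 0.0648).

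**Figure D2:**
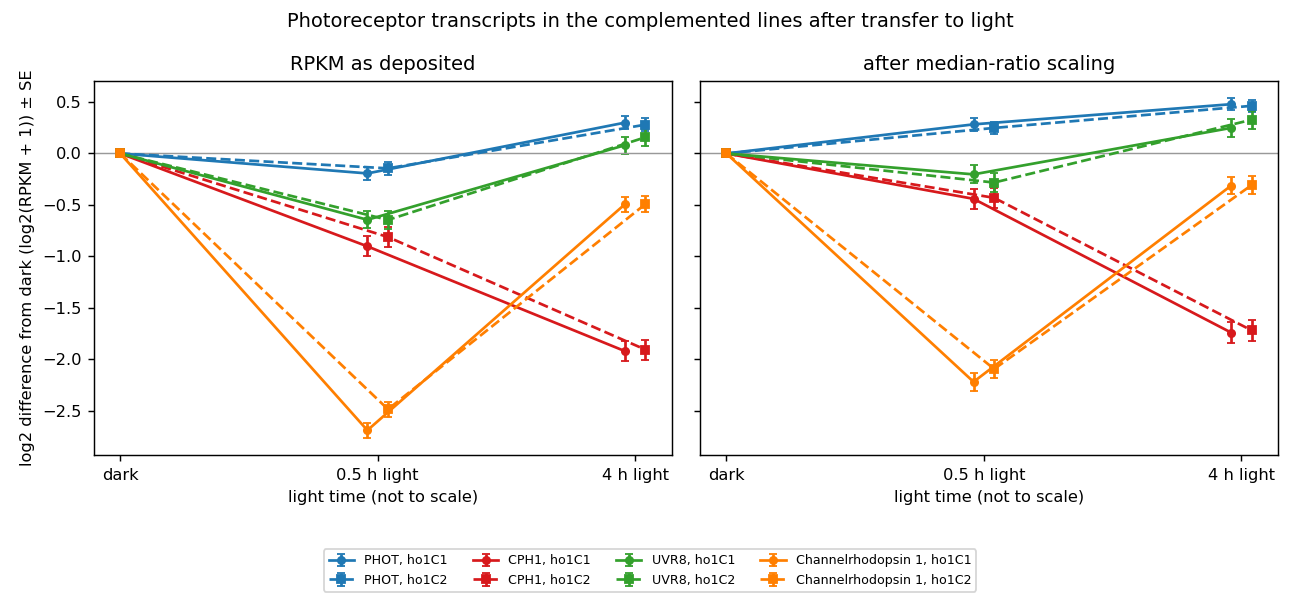
Log2 difference from the dark (± SE) of the 4 receptor transcripts at 0.5 h and 4 h of light in ho1C2 (squares, broken lines) and ho1C1 (circles, solid lines), as deposited on the left and after median-ratio scaling on the right. ChR1 is lowest at 0.5 h and CPH1 lowest at 4 h in both panels, and PHOT at 0.5 h lies below 0 on the left and above 0 on the right.

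The 2 complemented lines were then set against each other. In the dark, where 3.44% of tested genes were called between ho1C2 and ho1C1, 0 of the 4 receptors were called. The same count was found at 0.5 h (13% of tested genes called) and at 4 h (12.1% called). Taken as a difference of light responses, ho1C2 minus ho1C1, 0 of 4 were called at 0.5 h (1.71% of tested genes called) and 0 of 4 at 4 h (4.73% called). Of these 5 comparisons only ChR1 at 0.5 h had an unadjusted p under the threshold, with 23.7 ± 0.679 RPKM in ho1C2 and 20.3 ± 2.64 RPKM in ho1C1 (SD, n = 2 each), a log2 difference of 0.22 (95% interval 0.06 to 0.38, adjusted p = 0.0631). With a library left out that difference ranged from 0.09 to 0.35, and under median-ratio scaling it was 0.10 (adjusted p = 0.497). The difference of the ChR1 responses themselves was 0.20 at 0.5 h (-0.02 to 0.43) and 0.00 at 4 h (-0.22 to 0.23).

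The next question was whether feeding BV changed receptor transcripts at 4 h of light, in the wild type and in the mutant. UVR8 and PHOT were lower with BV in hmox1, and ChR1 was higher with BV in 4A+. In hmox1 2 of 4 receptors were called, both lower, where 58.2% of tested genes were called and 37.7% were lower. In 4A+ 1 of 4 was called, higher, where 59.5% of all tested genes were called and 32.1% were higher.

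ChR1 had 96.58 and 101.39 RPKM in hmox1 with BV, against 113.81 and 106.03 RPKM in hmox1 without BV. In 4A+ it had 153.05 and 160.4 RPKM with BV, against 93.81 and 93.27 RPKM without BV. As deposited, the BV libraries lay wholly below the others in hmox1 and wholly above them in 4A+. The log2 difference in hmox1 was -0.15 (95% interval -0.31 to 0.01, adjusted p = 0.0964) and was not called. Under median-ratio scaling it was -0.03 (adjusted p = 0.795), and with abundant genes alone 0.07 (adjusted p = 0.45), so its direction depended on the scaling. In 4A+ the deposited difference was 0.74 ± 0.0749 (SE, adjusted p = 1.08e-07), 67.5% more transcript, and 9.26% of tested genes rose as far or further. The BV response of ChR1, hmox1 minus 4A+, differed by -0.89 ± 0.106 on the log2 scale (SE, 95% interval -1.11 to -0.66, adjusted p = 3.82e-06). In that test of the difference 2 of 4 receptors were called, both lower, beside 33.6% of all tested genes called and 25.5% lower, and 4.32% of tested genes differed as far as ChR1 in that direction. Under every alternative run, the difference of the ChR1 responses lay between -0.94 and -0.72 and was called.

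PHOT had 72.9 and 72.7 RPKM in hmox1 with BV, against 76.27 and 91.12 RPKM in hmox1 without BV, with the second untreated library well above the first. In 4A+ it had 93.9 and 98.06 RPKM with BV, against 90.35 and 94.47 RPKM without BV, and these overlapped. The log2 difference was -0.19 in hmox1 (-0.32 to -0.06, adjusted p = 0.0133) and 0.05 in 4A+ (-0.08 to 0.19, adjusted p = 0.482). Without that second untreated library the hmox1 difference was -0.07 (adjusted p = 0.255), and under median-ratio scaling it was -0.07 (adjusted p = 0.321). The difference of the PHOT responses, hmox1 minus 4A+, was -0.25 (-0.43 to -0.06, adjusted p = 0.0389), and it was not called when any 1 of 7 of the 8 libraries was left out, with the first hmox1 library without BV as the exception. Under median-ratio scaling it was -0.07 (adjusted p = 0.537).

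UVR8 had 12.85 and 12.49 RPKM in hmox1 with BV, against 17.96 and 14.19 RPKM in hmox1 without BV. In 4A+ it had 13.04 and 12.11 RPKM with BV, against 13.9 and 13.81 RPKM without BV. The BV libraries were lower in both strains and did not overlap with the untreated ones. The log2 difference was called in hmox1, at -0.31 (-0.49 to -0.14, adjusted p = 0.00378), and not in 4A+, at -0.13 (-0.31 to 0.05, adjusted p = 0.191), and the 2 responses did not pass the test of their difference (-0.18, -0.43 to 0.07, adjusted p = 0.26). With a library left out that difference of responses ranged from -0.34 to -0.02, and under median-ratio scaling it was -0.02 (adjusted p = 0.936). Without the first hmox1 library without BV, the one at 17.96 RPKM, the hmox1 difference was -0.15 (adjusted p = 0.0921), and under median-ratio scaling it was -0.20 (adjusted p = 0.0681).

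CPH1 had 7.18 and 8.29 RPKM in hmox1 with BV, against 7.19 and 8.31 RPKM in hmox1 without BV. In 4A+ it had 6.17 and 7.69 RPKM with BV, against 6.45 and 7.18 RPKM without BV. The libraries with and without BV overlapped in both strains. The log2 difference with BV was 0.00 in hmox1 (-0.21 to 0.20, adjusted p = 0.986) and 0.02 in 4A+ (-0.19 to 0.22, adjusted p = 0.901), so a change of CPH1 larger than about 0.22 in either strain lay outside these intervals.

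The mutant was set against the wild type at 4 h of light. The clearest difference was found with BV present, where ChR1 and PHOT were both lower in hmox1. With BV, 49.9% of tested genes were called, 15% lower, and 2 of the 4 receptors were called, both lower. ChR1 averaged 98.99 ± 3.40 RPKM in hmox1 and 156.7 ± 5.20 RPKM in 4A+ (SD, n = 2 each), a log2 difference of -0.66 (95% interval -0.82 to -0.50, adjusted p = 8.28e-07), and 2.54% of tested genes were lower by as much. PHOT averaged 72.8 ± 0.141 RPKM in hmox1 and 95.98 ± 2.94 RPKM in 4A+, a log2 difference of -0.39 (-0.53 to -0.26, adjusted p = 4.21e-05). The libraries of the 2 strains did not overlap for either gene. CPH1 differed by 0.14 (adjusted p = 0.238) and UVR8 by 0.01 (adjusted p = 0.929), and neither was called. With a library left out the CPH1 difference ranged from 0.0045 to 0.28, and under median-ratio scaling it was -0.0036 (adjusted p = 0.98).

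Without BV, 65.2% of tested genes were called between hmox1 and 4A+, 53.5% higher and 11.8% lower, and 2 of the 4 receptors were called. ChR1 averaged 109.9 ± 5.50 RPKM in hmox1 and 93.5 ± 0.382 RPKM in 4A+ (SD, n = 2 each), a log2 difference of 0.23 (0.07 to 0.39, adjusted p = 0.0122). That is the size of the median over all tested genes, 0.24, and under median-ratio scaling the ChR1 difference was -0.11 (adjusted p = 0.274) and no longer called. PHOT averaged 83.7 ± 10.5 RPKM in hmox1 and 92.4 ± 2.91 RPKM in 4A+, a log2 difference of -0.15 (-0.28 to -0.01, adjusted p = 0.0481), with overlapping libraries. Under median-ratio scaling PHOT was lower by a larger log2 difference of -0.48 (adjusted p = 2.6e-06), whereas without the first hmox1 library it was -0.02 (adjusted p = 0.737). UVR8 averaged 16.1 ± 2.67 RPKM in hmox1 and 13.9 ± 0.0636 RPKM in 4A+, a log2 difference of 0.19 (adjusted p = 0.0522). With a library left out the UVR8 difference ranged from 0.03 to 0.35, and under median-ratio scaling it was -0.13 (adjusted p = 0.222). CPH1 averaged 7.75 ± 0.792 RPKM in hmox1 and 6.82 ± 0.516 RPKM in 4A+, a log2 difference of 0.16 (adjusted p = 0.154). Under median-ratio scaling the CPH1 difference was -0.14 (adjusted p = 0.233). The comparisons with hmox1 without BV thus rest on the pair of libraries that lay furthest apart.

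The complemented lines at 4 h without BV were compared with hmox1 and with 4A+, which share the same libraries of the lines. In ho1C2 against hmox1 38.9% of tested genes were called and in ho1C1 against hmox1 27.7%, and in each case 0 of the 4 receptors. In ho1C2 against 4A+ 56.4% of tested genes were called and in ho1C1 against 4A+ 53.3%, again with 0 of the 4 receptors. Over the 9 comparisons in which 0 receptors were called, 3 of 36 member tests had an unadjusted p under the threshold, all for ChR1. ChR1 averaged 97.3 ± 4.91 RPKM in ho1C2, 96.1 ± 3.98 RPKM in ho1C1, 109.9 ± 5.50 RPKM in hmox1 and 93.5 ± 0.382 RPKM in 4A+. Its log2 difference to hmox1 was -0.17 in ho1C2 (-0.33 to -0.02, adjusted p = 0.0739) and -0.19 in ho1C1 (-0.35 to -0.03, adjusted p = 0.0658). To 4A+ it was 0.05 in ho1C2 (-0.10 to 0.21, adjusted p = 0.553) and 0.04 in ho1C1 (-0.12 to 0.20, adjusted p = 0.69). PHOT averaged 89.4 ± 1.84 RPKM in ho1C2 and 87.8 ± 0.0566 RPKM in ho1C1, above the hmox1 mean of 83.7 RPKM and below the 4A+ mean of 92.4 RPKM. These counts turned on 1 library and on the scaling. When the second hmox1 library was left out, PHOT lay above hmox1 by 0.20 in ho1C1 and 0.23 in ho1C2. UVR8 (-0.31 and -0.30) and ChR1 (-0.24 and -0.23) then lay below it. Over all libraries left out, the lowest PHOT differences were -0.05 and -0.03 and the highest UVR8 differences 0.01 and 0.02, so both changed sign. The highest ChR1 differences were -0.14 and -0.12. Under median-ratio scaling all 4 receptors were called lower than 4A+ in ho1C2, between -0.34 and -0.22, and PHOT and ChR1 in ho1C1, at -0.33 and -0.22. With scaling on abundant genes alone 0 of the 4 were called in ho1C2 against 4A+. In ho1C1 against 4A+ only PHOT was then called, at -0.18 (adjusted p = 0.0455). The shares of all tested genes given above belong to the deposited values, so the rescaled counts stand here without a background.

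**Figure D3:**
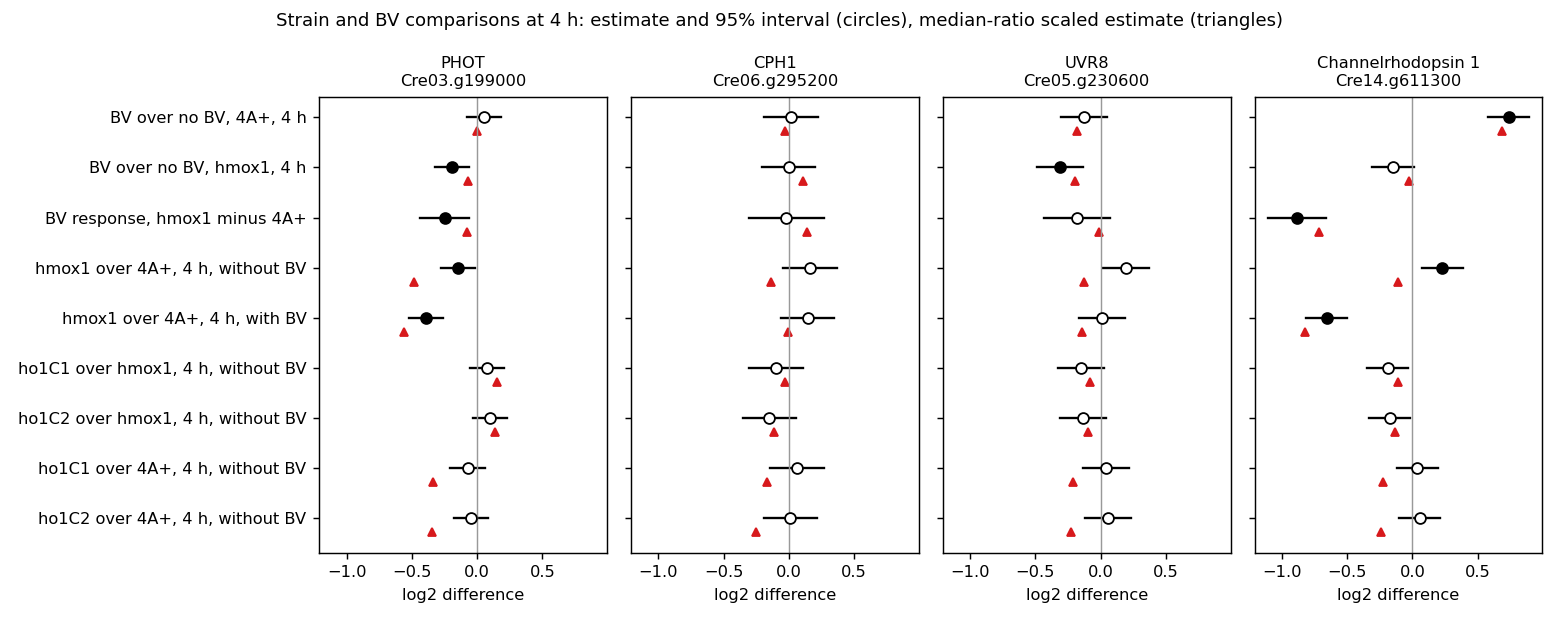
Log2 differences of the 4 receptor genes in the strain and BV comparisons at 4 h of light; circles and lines are limma estimates with 95% intervals, filled where called, and red triangles are estimates after median-ratio scaling. The ChR1 rise with BV in 4A+, at 0.74, and its lower level in hmox1 with BV, at -0.66, lie far from 0 on both scalings.

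Ordered by level, the groups of each gene overlapped in some places and lay apart in others. For CPH1 the dark groups came first, with 29.8 ± 0.120 RPKM in ho1C1 and 28.5 ± 1.05 RPKM in ho1C2, then the 0.5 h groups with 15.8 ± 0.156 RPKM in ho1C2 and 15.5 ± 0.410 RPKM in ho1C1, then all 6 groups at 4 h between 6.82 and 7.75 RPKM. Neighbouring groups among those 6 overlapped in every case, whatever the strain and whether or not BV was present. For ChR1 the order ran from 4A+ with BV at 156.7 ± 5.20 RPKM through the dark groups, with 137.2 ± 9.93 RPKM in ho1C2 and 135.8 ± 7.27 RPKM in ho1C1, and hmox1 without BV at 109.9 RPKM. It went on with overlapping 4 h groups of hmox1 with BV, ho1C2, ho1C1 and 4A+ without BV between 93.5 and 98.99 RPKM, and ended at the 0.5 h groups. BV-fed 4A+ after 4 h of light thus held more ChR1 transcript per length than the dark complemented lines, a contrast between strains, light and BV at once that was not tested. For PHOT 5 of 9 neighbouring pairs in the order did not overlap, with 4A+ with BV highest at 95.98 RPKM and ho1C1 at 0.5 h lowest at 62.1 RPKM. For UVR8 4 of 9 did not overlap, with hmox1 without BV highest at 16.1 RPKM and ho1C2 at 0.5 h lowest at 7.86 RPKM. Such pairs were not counted over all tested genes, so these counts only describe the order.

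The genes whose group means followed each receptor most closely over the 10 groups were looked up among 12632 tested genes and are given by ID only, as a description. The correlations are Pearson's r over 10 group means of log2(RPKM + 1), and since the groups share lines and light times a high r is common. For ChR1 the closest genes were Cre02.g103150 (r = 0.997), g10496 (r = 0.994) and Cre03.g176600 (r = 0.994). The gene g10496 shared both features of ChR1 and swung further in the light. It had 124.2 RPKM in the dark, 4.27 RPKM at 0.5 h and 69.0 RPKM at 4 h in ho1C1, and 119.2, 3.74 and 64.1 RPKM at the same times in ho1C2. It had 66.9 RPKM in hmox1 with BV, against 71.3 RPKM in hmox1 without BV, and 129.5 ± 4.83 RPKM in 4A+ with BV, against 75.5 ± 1.56 RPKM in 4A+ without BV. Its BV response, hmox1 minus 4A+, was -0.86 on the log2 scale (adjusted p = 0.00105), and that of Cre02.g103150 was -0.69 (adjusted p = 0.00368), while that of Cre03.g176600 was -0.31 (adjusted p = 0.0762). These p-values describe genes picked for their likeness to ChR1 on the same libraries and are no independent support for it.

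For CPH1 the closest genes were Cre06.g286950 (r = 0.996), g16126 (r = 0.994) and g3728 (r = 0.988). The gene g16126 had 12.7 RPKM in the dark and 4.92 RPKM at 0.5 h in ho1C1, and 12.1 and 4.79 RPKM in ho1C2. In the 6 groups at 4 h it lay between 0.11 and 0.655 RPKM. For UVR8 they were Cre05.g244900 (r = 0.993), g7585 (r = 0.987) and g4492 (r = 0.985). The gene g7585 had the same dip with a wider swing, with 35.0 RPKM in darkness, 7.29 RPKM at 0.5 h and 46.4 RPKM at 4 h in ho1C1, and 31.0, 7.51 and 44.4 RPKM in ho1C2. For PHOT they were g2974 (r = 0.99), Cre02.g083550 (r = 0.974) and Cre10.g465050 (r = 0.966). The gene g2974 had 47.4 RPKM in hmox1 with BV, against 56.9 RPKM in hmox1 without BV, and 67.1 RPKM in 4A+ with BV, against 59.8 RPKM in 4A+ without BV.

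**Figure D4:**
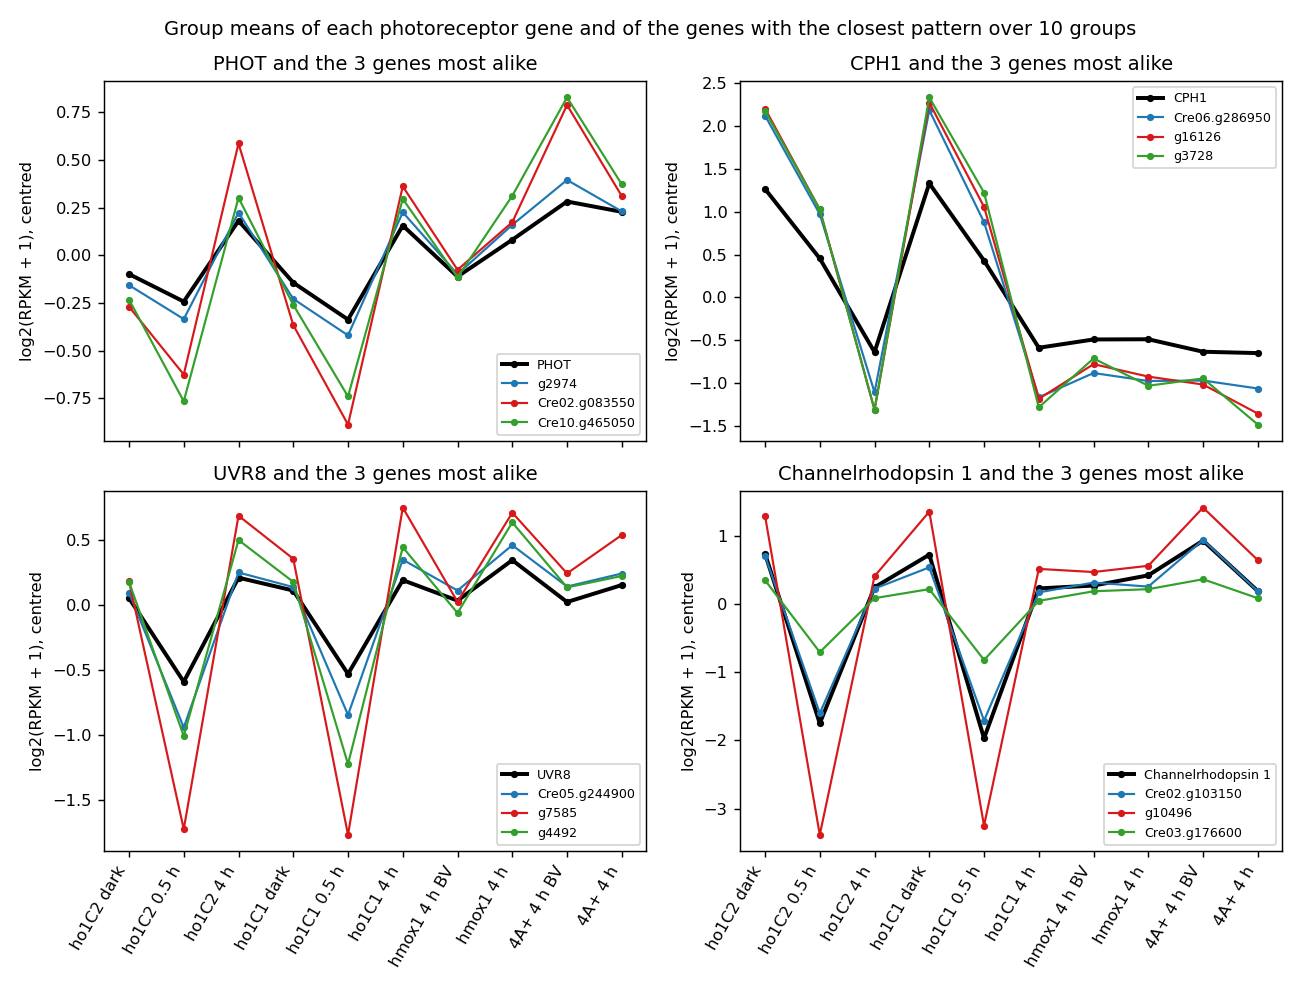
Group means of each receptor gene (black) and of the 3 genes with the closest pattern (colours), as log2(RPKM + 1) centred on the mean of each gene over the 10 groups. The genes closest to ChR1 share its low point at 0.5 h, and g10496 reaches further down than ChR1 itself.

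A further list of 6 IDs had been written down for light perception and signalling, and 5 of them were in the table. Neither the table nor the reference annotates them, so they are given by ID with no role. The list was chosen with earlier results of these data known, so its values only describe it. At 0.5 h of light 3 of the 5 rose and 2 fell in each line, where 81.2% of all tested genes were called in ho1C1 and 78.8% in ho1C2, so that 5 of 5 called is near the background. The list had a median log2 difference of 2.80 in ho1C1 and 2.64 in ho1C2, while the median of all tested genes was -0.38 and -0.31. The largest rise in the list was that of Cre06.g310500, which in ho1C1 had 0.695 RPKM in darkness, 39.9 RPKM at 0.5 h and 2.93 RPKM at 4 h, and in ho1C2 had 0.87, 34.4 and 2.21 RPKM at these times. Cre13.g602700 had 2.72, 26.7 and 4.22 RPKM at the same times in ho1C1, and Cre02.g085050 had 1.28, 14.9 and 2.79 RPKM. These peaks at 0.5 h stood opposite to the low points of ChR1 and UVR8 in the same libraries. Cre02.g085257 dipped as ChR1 did, with 12.7, 4.39 and 13.1 RPKM in ho1C1, and Cre01.g002500 had 379, 269 and 435 RPKM. At 4 h against dark 4 of the 5 were higher and 0 lower in each line, where in ho1C1 26% of all tested genes were higher and 43.5% lower. In ho1C2 22.6% of them were higher and 45.6% lower. With BV 5 of the 5 were lower in hmox1, with a median log2 difference of -0.74 beside -0.11 for all tested genes, of which 58.2% were called and 37.7% were lower. In 4A+ 1 was higher and 2 were lower, where 59.5% of all tested genes were called and 32.1% were higher.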

How the data were processed

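Transcript levels of 20 RNA-seq libraries of Chlamydomonas reinhardtii, 2 per group, were read from 1 deposited table. The authors deposited 1 value per gene and library, which is taken here as RPKM from its range and steps, the header naming no unit. STAR 2.3.0 and HTSeq are named in the submitters' processing notes with no role. The build, annotation, strand use and handling of reads shared by similar genes were not stated in those notes or in any other source used. The relative depth of libraries could not be fixed from the steps of low values, since library factors from 3 starting points differed by up to 2.84 times. As the values are not counts, no count test was run.

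A gene was tested if 2 or more libraries reached 1 RPKM (13871, with 3866 left out). The test was limma 3.58.1 (R 4.3.3) on log2(RPKM + 1) values, with trended and robust moderation. All 20 libraries entered 1 fit with 10 residual degrees of freedom. There were 20 comparisons, 17 of group pairs and 3 of responses, and 80 member tests, with Benjamini-Hochberg adjustment over all tested genes of a comparison and a threshold of 0.05. Tests are two-sided, SDs are over 2 libraries and intervals are 95%. Changes of weakly expressed genes are understated on this scale. The script was tested on simulated data.

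The members are named in full, and beside each the 3 genes with the highest Pearson r over group means, from genes with a mean of 1 RPKM or more. The members and lists were chosen with earlier results of these data known. In RefSeq's gene table (assembly Chlamydomonas_reinhardtii_v5.5) 11713 of 17737 IDs and all 4 members were found, with 0 symbols beyond locus tags. No protein or promoter sequence was used here, so a planned search for related proteins was not run. Alternatives were a pseudocount of 0.1, no filter, median-ratio scaling over 14740 genes, only the compared groups, plain moderation, a replicate block and leaving out each library. Library weights and median ratios over the 4670 genes with a mean of 10 RPKM or more were added after seeing the data.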

Additional observations from a re-analysis of the deposited data

Results flagged for a closer look

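The BV response differed between hmox1 and 4A+ for 2 of the 4 receptor genes, by a limma test of the difference itself, in which 33.6% of all tested genes were called and 25.5% were lower. For ChR1 the log2 response in hmox1 minus that in 4A+ was -0.89. As deposited, both BV libraries lay below both untreated ones in hmox1 and both above them in 4A+. The ChR1 response in hmox1 alone was not called, and was -0.03 under median-ratio scaling and 0.07 with abundant genes alone. For PHOT the difference of responses was -0.25, with libraries that did not overlap in hmox1 and overlapping ones in 4A+. The hmox1 pair without BV, which enters both results, lay further apart than other replicate pairs (a median absolute log2 difference of 0.155). With library weights, which gave each library of that pair a weight of 0.279, both differences were still called. The ChR1 difference was called under every alternative run. The PHOT difference was not called under median-ratio scaling (-0.07, adjusted p = 0.537), with abundant genes alone (-0.15, adjusted p = 0.28), with only the compared groups (adjusted p = 0.171), with plain moderation (adjusted p = 0.0693) or when any 1 of 7 of the 8 libraries was left out.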

How the results depend on the processing

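Leaving out each library in turn left 338 member results with the same call, while 20 lost it, 10 gained it and 0 called values changed sign. Under the other alternatives 600 member results kept their call, 18 lost it, 14 gained it and 8 changed sign with a call on at least 1 side; sign changes of values called on neither side are not counted. Under median-ratio scaling these were ChR1 in hmox1 against 4A+ without BV (-0.11), PHOT at 0.5 h in ho1C1 (0.28) and ho1C2 (0.25), ChR1 in ho1C1 against 4A+ (-0.22), and in ho1C2 against 4A+ CPH1 (-0.25), UVR8 (-0.22) and ChR1 (-0.24). With abundant genes alone it was PHOT with BV in hmox1 (0.0298). These changes follow from the scaling, which moves all genes of a library together. The 0.5 h and 4 h comparisons with dark kept their counts of called receptors to within 1.5 times under every alternative.

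In hmox1 against 4A+ without BV the count of 2 became 1 with no filter, median-ratio scaling, abundant-gene scaling or plain moderation, and 0 with only the compared groups or library weights, and 0 to 3 with a library left out. With BV in hmox1 the count of 2 became 0 under both scalings and with only the compared groups, and 1 to 2 with a library left out. With BV in 4A+ the count of 1 became 2 with abundant genes. For the difference of BV responses the count of 2 became 1 under both scalings, only the compared groups and plain moderation, and 1 to 2 with a library left out. The counts of 0 became 2 (median ratio) and 1 (abundant genes) in ho1C1 against 4A+, 4 (median ratio) in ho1C2 against 4A+, and 1 (abundant genes) in ho1C2 against hmox1. With a library left out they were 0 to 3 against hmox1 in both lines and 0 to 1 for ho1C2 against ho1C1 at 0.5 h, where library weights gave 1. The cause was not tested.

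Nothing in the labels says that replicate numbers mark shared cultures or days. Of 45 pairs of groups 16 had a correlation of same-numbered deviations over 0.1 and 0 under -0.1 (lowest -0.0979, median 0.0788, highest 0.330), so the samples share a number and are not treated as paired. Replicate 2 was above replicate 1 in 9 of 10 groups for CPH1, 8 of 10 for ChR1 and 7 of 10 for PHOT. For UVR8 replicate 1 was above replicate 2 in 9 of 10. Such counts were not made over all tested genes, so they only describe these 4 genes. As a replicate block the numbers raised the count of 2 to 3 in hmox1 against 4A+ without BV (UVR8, 0.19, adjusted p = 0.0277) and with BV in hmox1 (ChR1, -0.15, adjusted p = 0.0467). They gave 1 called receptor, ChR1, where the count was 0 in ho1C1 against hmox1, ho1C2 against hmox1 and ho1C2 against ho1C1 at 0.5 h. Depth is unknown, and 2 libraries per group limit every value.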
